A study of Mus musculus with 14 samples.

Results

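A set of 10 genes in common use as markers of astrocytes was followed across a culture of oligodendrocyte precursor cells (OPCs) that was driven to become oligodendrocytes (OLs). They are Gfap, Vim, Slc1a2, Slc1a3, Aqp4, Gja1, Aldoc, Aldh1l1, Fgfr3 and S100b, chosen by symbol as 10 of the 23427 genes in the table. The choice used values of these libraries, namely that Gfap was higher at Day3 than at Day0 and that several of the genes were lower in siPdgfra, so the differences of the 10 genes from Day0 and in siPdgfra are given as descriptions and carry no test. Differences between the other Day3 groups were not part of the choice and were tested.

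The cells were wild-type C57BL/6J mouse primary OPCs, taken by the study from the cortices of several pups at postnatal day 7, cleared of cells that bind a lectin of microglia and endothelium, and captured with an antibody against PDGFRα. The growth medium in the study's methods was a defined mix with PDGF-AA and CNTF that lists no serum, whereas the sample labels name DMEM with fetal bovine serum. Differentiation in those methods followed removal of PDGF-AA and addition of the thyroid hormone T3, and whether the transfected cells received T3 is not stated there. The 7 groups held 2 libraries each: Day0, non-treated Day3, mock Day3 (transfected with no siRNA), NC siRNA #1 and NC siRNA #2 at Day3 (non-targeting siRNAs), siSbp2l at Day3 (an siRNA against Secisbp2l, the gene of Sbp2l) and siPdgfra at Day3 (an siRNA against Pdgfra). All groups carried the same genotype, and the 2 replicates of a group are described as independent. Expression is given as FPKM, a fragment count corrected for exon length and for library depth, so that levels of different genes can be set side by side.

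Astrocytes take up glutamate, buffer water and potassium and couple to each other through gap junctions, and they brace the tissue with intermediate filaments made of GFAP and vimentin. OPCs grown with CNTF or with factors in serum can turn on Gfap in culture, a route that runs through the receptor chain gp130, JAK kinases and STAT3, and BMP and Notch signals act on the same choice. Several of the 10 genes are not limited to astrocytes: Vim is high in dividing glial precursors, Slc1a3 in radial glia, Fgfr3 and Slc1a2 are found in the OL lineage, and S100b in young OLs.

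The targeted genes bore out the siRNA labels. Secisbp2l stood at 3.91 and 3.82 FPKM in siSbp2l and at 135 to 255 FPKM in the 8 control libraries of Day3, and Pdgfra stood at 3.30 and 2.69 FPKM in siPdgfra and at 32.4 to 72.1 FPKM in those controls. Depth recovered from the spacing of low FPKM values lay between 6560786 fragments in NC siRNA #2 replicate 2 and 31621282 in Day0 replicate 1, and a gene with 2 kb of exon needs 0.229 FPKM in the shallowest library to reach 3 fragments. The non-treated pair stood apart: its replicates differed with an SD of 0.457 on the log2 scale across 11874 genes, where the remaining pairs had 0.148 to 0.1995, and the difference ran with the GC content of the transcripts (Spearman rho 0.77 across 11031 genes, which are not independent). Differences of the members and counts of the lists from Day0 are therefore also given with mock, and those of mock from non-treated also without each non-treated library. A trend with GC content was also present in the Day0 pair (rho 0.495) and the NC siRNA #1 pair (rho -0.45). In the pairs of mock, NC siRNA #2, siSbp2l and siPdgfra rho lay between -0.06 and 0.18. Comparisons of mock with Day0 thus still hold a pair with such a trend. In recovered fragments, replicates differed with a mean chi-square per gene of 29.9 in non-treated and 1.72 to 5.59 in the remaining pairs, where counting error alone gives 1. The p-values below rest on the spread within such pairs, which need not hold the spread between cultures from other animals.

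The promoters of the members are shown first, with motifs that include that of STAT3, through which CNTF acts. Sites outside the windows given below were not searched. RefSeq windows of 300 bases (250 before the start site and 50 from it, build GRCm38.p6, the same build as mm10) were matched for 9 of the 10 genes, in 11 windows. The STAT motif TTCNNNGAA, which reads the same on both strands, was present in 3 of the 11 windows and in 8.3% of all 32851 mouse windows. Those 3 belonged to Gfap, Slc1a3 and the window of Aldoc that starts where its gene does in the files. They are printed 5′ to 3′ on the strand of the gene with the motif in capitals, beside the windows of S100b and Vim, which hold no TTCNNNGAA. The windows are chr11:102897151-102897450 (minus strand) for Gfap, chr15:8710758-8711057 (minus strand) for Slc1a3, chr11:78323948-78324247 (plus strand) for Aldoc, chr10:76253586-76253885 (plus strand) for S100b and chr2:13574061-13574360 (plus strand) for Vim.
Gfap: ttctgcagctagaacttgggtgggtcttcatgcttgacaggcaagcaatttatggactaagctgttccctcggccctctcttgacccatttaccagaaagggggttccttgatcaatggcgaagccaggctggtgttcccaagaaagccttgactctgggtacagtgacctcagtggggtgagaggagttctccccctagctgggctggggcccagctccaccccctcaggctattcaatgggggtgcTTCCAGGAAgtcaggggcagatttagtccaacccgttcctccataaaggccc
Slc1a3: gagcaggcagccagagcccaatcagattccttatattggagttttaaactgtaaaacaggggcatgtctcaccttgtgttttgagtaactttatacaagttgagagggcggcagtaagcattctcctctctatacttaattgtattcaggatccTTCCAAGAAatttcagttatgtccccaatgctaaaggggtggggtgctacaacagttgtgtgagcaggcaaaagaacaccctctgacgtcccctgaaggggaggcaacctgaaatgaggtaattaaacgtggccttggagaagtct
Aldoc: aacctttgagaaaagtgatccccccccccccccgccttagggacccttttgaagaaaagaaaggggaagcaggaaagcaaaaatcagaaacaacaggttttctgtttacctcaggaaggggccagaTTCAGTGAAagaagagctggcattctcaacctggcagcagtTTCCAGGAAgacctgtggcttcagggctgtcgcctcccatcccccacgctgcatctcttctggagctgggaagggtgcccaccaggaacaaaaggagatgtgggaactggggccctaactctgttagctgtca
S100b: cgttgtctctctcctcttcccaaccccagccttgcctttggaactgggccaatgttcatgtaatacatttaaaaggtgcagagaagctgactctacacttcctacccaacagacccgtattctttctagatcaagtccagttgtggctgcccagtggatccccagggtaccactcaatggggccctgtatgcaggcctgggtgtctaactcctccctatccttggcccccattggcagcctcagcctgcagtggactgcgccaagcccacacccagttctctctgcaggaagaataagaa
Vim: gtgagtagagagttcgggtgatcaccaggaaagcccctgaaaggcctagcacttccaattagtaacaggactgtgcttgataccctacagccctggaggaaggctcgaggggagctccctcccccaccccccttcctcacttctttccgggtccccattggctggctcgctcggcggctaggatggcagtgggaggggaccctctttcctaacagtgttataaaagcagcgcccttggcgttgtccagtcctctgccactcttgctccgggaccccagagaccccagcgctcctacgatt
The Gfap match, TTCCAGGAA, spans the start site from base -2, and that of Slc1a3, TTCCAAGAA, begins at base -96. The Aldoc window holds TTCAGTGAA at base -124 and TTCCAGGAA at base -83. On either strand, the core site of nuclear receptors AGGTCA, which the T3 receptor also reads, was found in the windows of Gfap, Slc1a2 and Aldh1l1 and in 16.3% of all windows. The Slc1a2 window lies at a RefSeq start site 47755 bases downstream of the gene start given below, so it does not cover that start. The core site of the NFI factors, TTGGCA, was found for S100b and in the other Aldoc window and in 14.1% of all windows, and in S100b it overlapped a CCAAT box. CCAAT stood in 5 of the 11 windows and in 37.4% of all, TATAAA in those of Vim and Slc1a3 and in 13.6% of all, and the AP-1 motif TGANTCA in that of Gja1 and in 7.81% of all. A match in letters is no evidence of binding, and none of these motifs was tested for use by the cells.

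**Figure D1:**
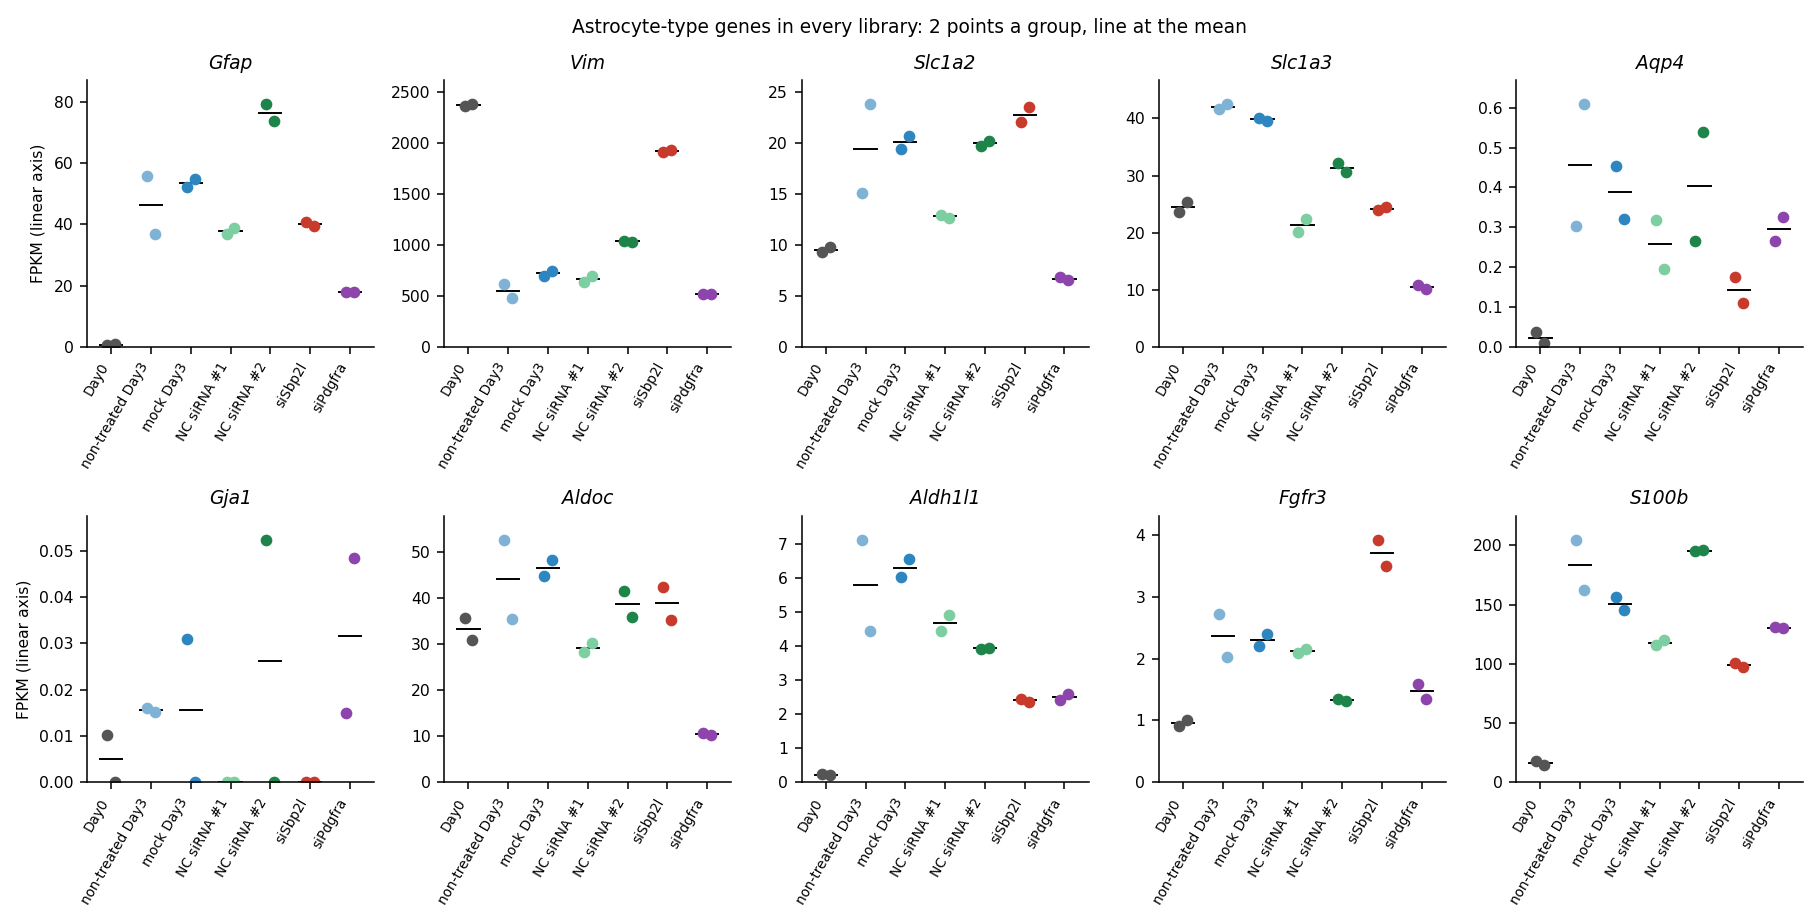
FPKM of the 10 astrocyte-type genes in each of the 14 libraries, on a linear axis per gene, with 1 point a library and a line at the mean of the 2 libraries of a group. Gfap, Aldh1l1 and S100b sit near the axis at Day0, Vim is highest at Day0 and in siSbp2l, Aldoc, Slc1a2 and Slc1a3 are lowest in siPdgfra, and the axes of Aqp4 and Gja1 end below 1 FPKM.

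The intermediate filament genes ran in opposite directions with time. Gfap (chromosome 11, bases 102887336 to 102897200 of mm10, minus strand, 4072 exon bases) encodes the filament protein by which astrocytes are usually named. Its FPKM was 0.677 and 0.755 at Day0, 55.9 and 36.8 in non-treated Day3 and 52.2 and 54.9 in mock. With the non-targeting siRNAs it was 36.8 and 38.8 in NC siRNA #1 and 79.2 and 73.7 in NC siRNA #2, while siSbp2l gave 40.7 and 39.4 and siPdgfra 18.0 and 18.1. Every Day3 library lay above both Day0 libraries, the mean of non-treated being 64.7-fold and that of mock 74.7-fold the mean of Day0. In such bulk libraries more cells that express a gene and more RNA per cell cannot be told apart. The order from high to low was NC siRNA #2, mock, non-treated, siSbp2l, NC siRNA #1, siPdgfra and Day0. The wide range of non-treated overlapped those of mock, siSbp2l and NC siRNA #1, while both siSbp2l libraries lay below both mock libraries.

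Vim (chromosome 2, bases 13574311 to 13582826, plus strand, 1834 exon bases) encodes vimentin, the filament of immature glia. It was the most abundant member in every group, at 2367 and 2379.7 FPKM in Day0, 614 and 475 in non-treated and 694 and 748 in mock. The non-targeting siRNAs gave 631 and 694 (NC siRNA #1) and 1042 and 1034 (NC siRNA #2), siSbp2l gave 1916 and 1935, and siPdgfra gave 516 and 521. The siSbp2l libraries thus lay between Day0 and the other Day3 groups, with a mean 0.811 of the Day0 mean, against 0.229 in non-treated and 0.218 in siPdgfra.

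The glutamate transporter genes had a smaller spread. Slc1a2 (chromosome 2, bases 102658683 to 102790784, plus strand), which encodes GLT-1, the main glutamate carrier of the adult forebrain, stood at 9.26 and 9.77 FPKM at Day0, 15.1 and 23.7 in non-treated and 19.4 and 20.6 in mock. It stood at 12.95 and 12.6 in NC siRNA #1, 19.7 and 20.2 in NC siRNA #2, 22.1 and 23.4 in siSbp2l and 6.83 and 6.50 in siPdgfra. Both siPdgfra libraries were below every other library, Day0 included. Slc1a3 (chromosome 15, bases 8634124 to 8710807, minus strand), which encodes GLAST, the carrier of radial glia and young astrocytes, was 23.6 and 25.4 at Day0, 41.7 and 42.5 in non-treated and 40.1 and 39.6 in mock. It was 20.2 and 22.5 in NC siRNA #1, 32.2 and 30.6 in NC siRNA #2, 23.9 and 24.5 in siSbp2l and 10.8 and 10.1 in siPdgfra. The siSbp2l and Day0 ranges of Slc1a3 overlapped, and siPdgfra was again the lowest group.

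The metabolic enzymes parted at Day0. Aldoc (chromosome 11, bases 78324198 to 78326760, plus strand), the brain aldolase of glycolysis, was already present there at 35.6 and 30.8 FPKM. It was 52.6 and 35.4 in non-treated, 44.8 and 48.1 in mock, 28.3 and 30.1 in NC siRNA #1 and 41.5 and 35.9 in NC siRNA #2. In siSbp2l it was 42.5 and 35.2, inside the span of the controls, and in siPdgfra 10.6 and 10.1, the lowest of all groups. Aldh1l1 (chromosome 6, bases 90550848 to 90599171, plus strand), an enzyme of folate metabolism whose promoter is widely used to mark astrocytes, was 0.246 and 0.202 FPKM at Day0, from 24 and 14 fragments. At Day3 it was 7.13 and 4.45 in non-treated, 6.03 and 6.56 in mock, 4.44 and 4.92 in NC siRNA #1 and 3.93 and 3.95 in NC siRNA #2. It was lowest at Day3 in siSbp2l (2.45 and 2.36) and siPdgfra (2.42 and 2.60), whose ranges overlapped.

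Fgfr3 (chromosome 5, bases 33721724 to 33737068, plus strand), a receptor for fibroblast growth factors, was a low gene at 0.910 and 1.00 FPKM in Day0, 2.71 and 2.03 in non-treated and 2.20 and 2.39 in mock. It was 2.10 and 2.16 in NC siRNA #1, 1.35 and 1.31 in NC siRNA #2, 3.92 and 3.50 in siSbp2l and 1.58 and 1.35 in siPdgfra. Its highest group was siSbp2l, apart from all others, and siPdgfra and NC siRNA #2 overlapped. S100b (chromosome 10, bases 76253836 to 76261319, plus strand), a small calcium-binding protein, was 17.5 and 14.8 FPKM at Day0, 205 and 162 in non-treated and 156 and 145.5 in mock. It was 116 and 120.0 in NC siRNA #1, 195 and 196 in NC siRNA #2, 100.4 and 97.0 in siSbp2l and 131 and 129.9 in siPdgfra. Among the Day3 groups siSbp2l was the lowest, and siPdgfra lay between NC siRNA #1 and mock.

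The channel genes of mature astrocytes were close to absent. Aqp4, which encodes the water channel of astrocyte endfeet, reached 0.608 FPKM at most (66 fragments, non-treated replicate 2) and was 0.0373 and 0.0087 FPKM at Day0 (6 fragments and 1 fragment). In the 8 control libraries of Day3 it lay between 0.196 and 0.608 FPKM, in siPdgfra at 0.267 and 0.325, and in siSbp2l at 0.175 and 0.109 (18 and 12 fragments). Gja1 (chromosome 10, bases 56377300 to 56390419, plus strand), which encodes connexin 43, the main gap junction protein of astrocytes, had between 0 and 3 fragments in each library. Where its count was 0, 3 fragments would have been 0.0429 to 0.147 FPKM, so a level below that was not detectable at this depth. Neither gene reached 1 FPKM in 2 libraries, the filter of the tests, and 8 of the 10 members passed it.

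The name astrocyte-type can be set against 42 other genes of the astrocyte list. Of these, 9 stayed under 1 FPKM in the mean of every group, among them Slc6a11, Cbs, Cldn10 and Slc39a12, and Gjb6, the partner connexin of Gja1, had no group mean above 0. At the other end, with genes named after their values were seen, Fabp7 ranged over the group means from 138 to 1092 FPKM, Glul (glutamine synthetase) from 90.9 to 247, Kcnj10 (the potassium channel Kir4.1) from 48.8 to 168 and Sparcl1 from 5.96 to 163. The libraries therefore held a part of the astrocyte gene set, with Aqp4, Gja1 and Gjb6 near or at 0.

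Markers of the other cell types were read alongside. All 10 OPC markers reached 1 FPKM in at least 1 library and summed to 2284 and 2582 FPKM at Day0 and to 1214 to 1667 FPKM at Day3, and 9 OL markers summed to 791 and 872 FPKM at Day0 and to 7074 to 10334 FPKM in the Day3 controls. In siSbp2l the OL markers summed to 2844 and 3046 FPKM and in siPdgfra to 5313 and 6104. Microglial markers summed to 12.99 to 31.9 FPKM over all libraries, with 8 of 10 under 1 FPKM throughout and 2 of them at 0. All 8 fibroblast and mural markers were under 1 FPKM in every library (sums of 0.101 to 0.368), and so were 7 of 8 endothelial markers, with 2 at 0, and 5 of 6 ependymal and choroid markers, with 3 at 0. The 8 radial glia and neural stem markers, which include Vim and Slc1a3, summed to 3688 and 3857 FPKM at Day0, 2744 and 2700.3 in siSbp2l, 1217 to 1611 in the Day3 controls and 896 and 950.3 in siPdgfra. Vim alone made up 2367 and 2379.7 FPKM of these sums at Day0 and 1916 and 1935 in siSbp2l. The 6 markers other than Vim and Slc1a3 had a median log2 difference of 0.22 between siSbp2l and the Day3 controls, against 0.15 over all genes tested. Neuronal markers, chiefly Tubb3, summed to 50.8 to 281 FPKM in the Day3 controls, 202 and 203 in siSbp2l and 241 and 244 in siPdgfra. The part of these shifts in the levels of the 10 genes was not tested.

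**Figure D2:**
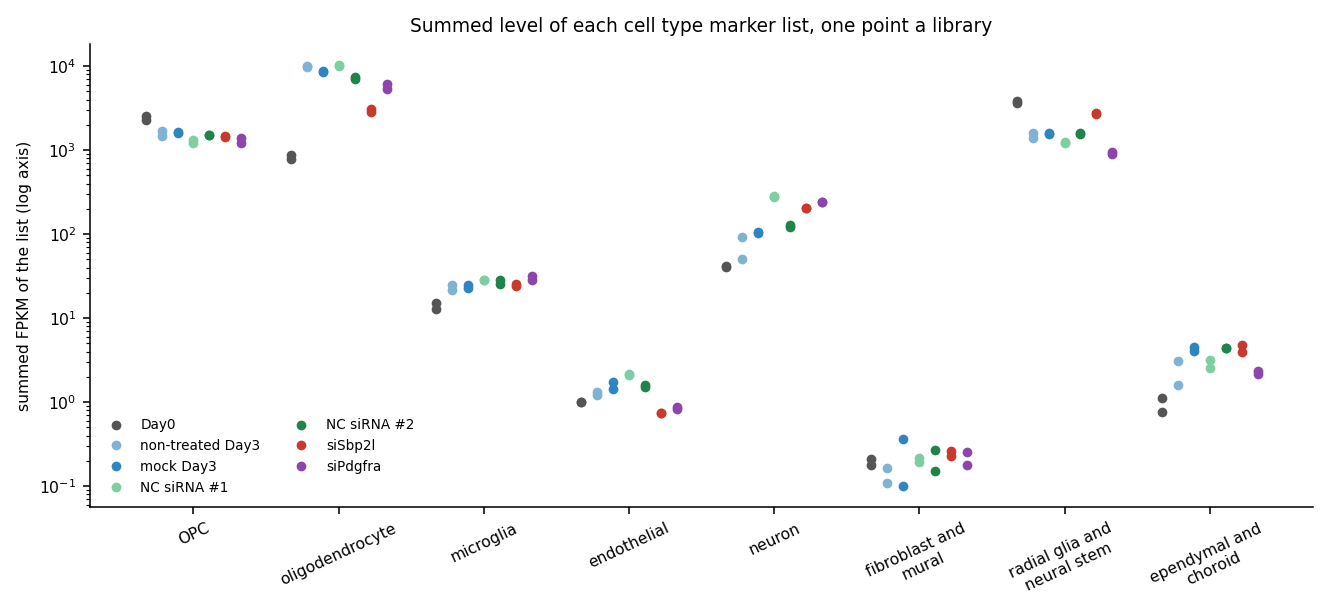
Summed FPKM of each list of cell type markers on a log axis, 1 point a library, coloured by group. OL markers are lowest at Day0 (791 and 872) and next lowest in siSbp2l (2844 and 3046), and the fibroblast and mural list stays under 1 FPKM in all libraries. The radial glia and neural stem list is highest at Day0 and in siSbp2l, where Vim, a member, is the largest part of the sum.

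From Day0 to Day3, 7 of the 8 members past the filter were higher in non-treated cells and Vim was lower, as a description of the values that chose them, where 44% of all genes were higher. On the log2(FPKM + 1) scale, which understates changes of low genes, the difference of non-treated from Day0 was 4.76 for Gfap, 3.42 for S100b and 2.44 for Aldh1l1. It was 0.92 for Slc1a2, 0.78 for Fgfr3, 0.76 for Slc1a3, 0.37 for Aldoc and -2.13 for Vim. With mock in place of non-treated the values were 4.99, 3.15, 2.58, 1.00, 0.75, 0.68, 0.48 and -1.72 in the same order. Thus 4 of the 8 differed at least 2-fold in the non-treated cells, 3 upward and 1 downward, where 26.6% of the 11874 genes did so in either direction.

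Of the 42 other astrocyte genes, a list also drawn up with earlier results of these data known, 33 passed the filter. Of these, 19 rose and 7 fell from Day0 to non-treated Day3 with a median of 0.92, against a median of -0.12 over all genes tested, of which 28.4% rose and 38.6% fell. Sparcl1, a secreted matrix protein, rose from 5.96 to 122 FPKM (log2 difference 4.14 ± 0.11 SE, limma adjusted p = 1.97e-10), and Mlc1, a membrane protein of perivascular astrocyte contacts, rose from 1.59 to 39.9 FPKM (3.95 ± 0.16, limma adjusted p = 2.56e-09). Sparc rose by 3.32 ± 0.10, whereas Chrdl1, a secreted BMP antagonist, fell from 12.1 to 0.635 FPKM. Among the 10 reactive astrocyte genes tested of 35 listed, 5 rose and 4 fell: Serpina3n, a secreted protease inhibitor, went from 104 to 368 FPKM (1.80 ± 0.14, limma adjusted p = 6.0e-07) and S100a10 from 5.15 to 0.408. Astrocyte fate factors went both ways, 3 up and 5 down of 11 tested, with Sox8 higher by 1.47 ± 0.14 and Nfib lower by 1.71 ± 0.14 on the log2 scale. With mock in place of non-treated, where 29.7% of genes rose and 36.6% fell, the counts up and down were 20 and 7 for the other astrocyte genes, 6 and 3 for the reactive genes and 3 and 5 for the fate factors. Without non-treated replicate 1 (30.8% and 44.4% of genes) they were 19 and 9, 4 and 4, and 3 and 5, and without replicate 2 (32.8% and 40.3%) 21 and 7, 5 and 4, and 3 and 6.

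Signalling genes were read in the same comparison, beside the 28.4% of all genes that rose and the 38.6% that fell. Of 15 genes of the CNTF receptor and JAK-STAT list that were tested, 7 rose and 1 fell (11 and 0 with mock, 10 and 4 without non-treated replicate 1, 10 and 1 without replicate 2). Socs3, the feedback inhibitor that STAT3 induces, rose from 6.82 to 24.2 FPKM (1.65 ± 0.19, limma adjusted p = 1.25e-05) and Ptpn11 (the phosphatase SHP2) from 60.5 to 175. In the BMP and Id list 5 rose and 4 fell of 16 (6 and 4 with mock, 5 and 4 without replicate 1, 6 and 7 without replicate 2): Smad7, the inhibitory Smad, rose from 0.461 to 14.6 FPKM, Bmp4 from 0.156 to 3.60 and Id4 from 2.70 to 12.5, while Bmp7 fell from 55.9 to 5.36. In the Notch list 7 rose and 5 fell of 13 (6 and 4, 5 and 6, and 6 and 5 in the same order), with the target Hes5 going from 1.23 to 7.22 FPKM and the ligand Dll1 from 65.7 to 14.9. Of the paralogs and partners of the 10 genes, 11 rose and 9 fell of 28 (13 and 9, 11 and 10, and 12 and 9). Dtna, a dystrobrevin of the complex that anchors Aqp4, rose from 2.50 to 47.3 FPKM, the FGF receptor Fgfr2 from 0.564 to 11.03 and the OL connexin Gjc3 from 43.6 to 283, and the filament partner Nes fell from 118 to 24.2.

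**Figure D3:**
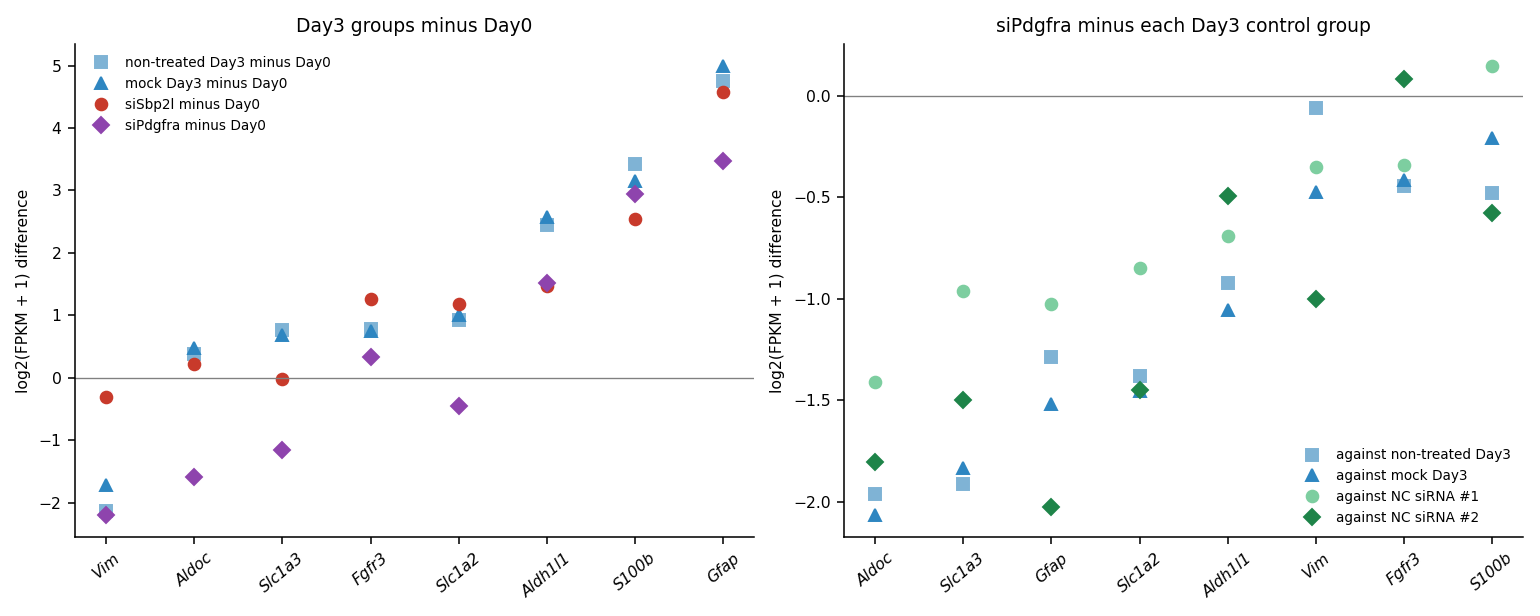
Differences in log2(FPKM + 1) of the 8 members past the filter, left for 4 Day3 groups minus Day0 and right for siPdgfra minus each Day3 control group, 1 mark a comparison of group means. On the left Gfap is the most positive in each group (3.47 to 4.99) and Vim in siSbp2l sits near 0 (-0.30), and on the right only Fgfr3 against NC siRNA #2 and S100b against NC siRNA #1 lie above 0.

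Silencing of Secisbp2l did not move the 10 genes in 1 direction. Against the mean of the 4 Day3 control groups, 7 of the 8 members tested passed an adjusted p of 0.05, 3 higher and 4 lower, in a comparison in which 53.4% of the 11650 genes tested passed (35.5% higher and 17.9% lower). The median over all genes was 0.15 on the log2 scale and became -0.00065 when the libraries were scaled by median ratios, so the values are given with that shift. Vim was the only member to reach 2-fold on the log2(FPKM + 1) scale, which 7.19% of genes did, 363 upward and 475 downward (214 and 626 after median-ratio scaling). It stood at 1926 FPKM against 742 in the controls, higher by 1.42 ± 0.10 (SE) with a limma adjusted p of 2.81e-06, and by 1.27 relative to the median of all genes.

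The other filament gene did not follow. Gfap was 40.1 FPKM in siSbp2l and 53.5 in the controls, lower by 0.35 ± 0.12 on the log2 scale (limma adjusted p = 0.036). Against NC siRNA #2 alone the difference was -0.92, against NC siRNA #1 it was 0.08 (limma adjusted p = 0.698), and both siSbp2l libraries lay inside the range of the 8 control libraries. Over 20 alternative fits the adjusted p of Gfap ranged from 2.29e-05 to 0.183, and 10 of them missed the threshold.

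Aldh1l1 and S100b were lower in siSbp2l and Fgfr3 was higher. Aldh1l1 was 2.40 FPKM against 5.18, a 2.15-fold lower FPKM, and lower by 0.84 ± 0.13 on the log2(FPKM + 1) scale (limma adjusted p = 0.00041) or by 1.04 with a pseudocount of 0.1 (limma adjusted p = 0.00032). S100b was 98.7 against 162, lower by 0.68 ± 0.09 (limma adjusted p = 0.00017). Fgfr3 was 3.71 against 2.03 FPKM (0.65 ± 0.09, limma adjusted p = 0.00027). In these genes and in Vim, both siSbp2l libraries lay outside the range of all 8 control libraries, 2 genes above it and 2 below, as did 44.3% of all genes tested (30.8% above and 13.5% below). Against single control groups, where 41.7% (NC siRNA #2), 42.6% (mock), 47.3% (NC siRNA #1) and 49.3% (non-treated) of genes passed, Vim, Aldh1l1 and Fgfr3 passed the threshold in all 4 comparisons, Vim by 0.89 to 1.83, Aldh1l1 by -0.54 to -1.10 and Fgfr3 by 0.49 to 1.01. S100b passed in 3 of them and was lower than NC siRNA #1 by 0.26 ± 0.12 (limma adjusted p = 0.094).

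The transporters and Aldoc stayed within the span of the controls. For Slc1a2 this rests on non-treated replicate 2 (23.7 FPKM): the next highest control library, of mock, was 20.6, below both siSbp2l libraries (22.1 and 23.4). Slc1a3 was 24.2 FPKM in siSbp2l and 33.6 in the controls, lower by 0.42 ± 0.07 (limma adjusted p = 0.00081), but with the NC siRNA groups as the only controls the difference was -0.09 (limma adjusted p = 0.343). It was lower than non-treated by 0.77, than mock by 0.70 and than NC siRNA #2 by 0.36, and stood at 0.18 above NC siRNA #1. Slc1a2 was 22.8 FPKM against 18.0, with a difference of 0.35 ± 0.13 (limma adjusted p = 0.045) that became 0.19 (limma adjusted p = 0.338) after median-ratio scaling and passed against NC siRNA #1 alone (0.78 ± 0.16, limma adjusted p = 0.0034). Aldoc was 38.8 FPKM in siSbp2l and 39.6 in the controls, with a log2 difference of -0.00 ± 0.13 (limma adjusted p = 0.983).

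**Figure D4:**
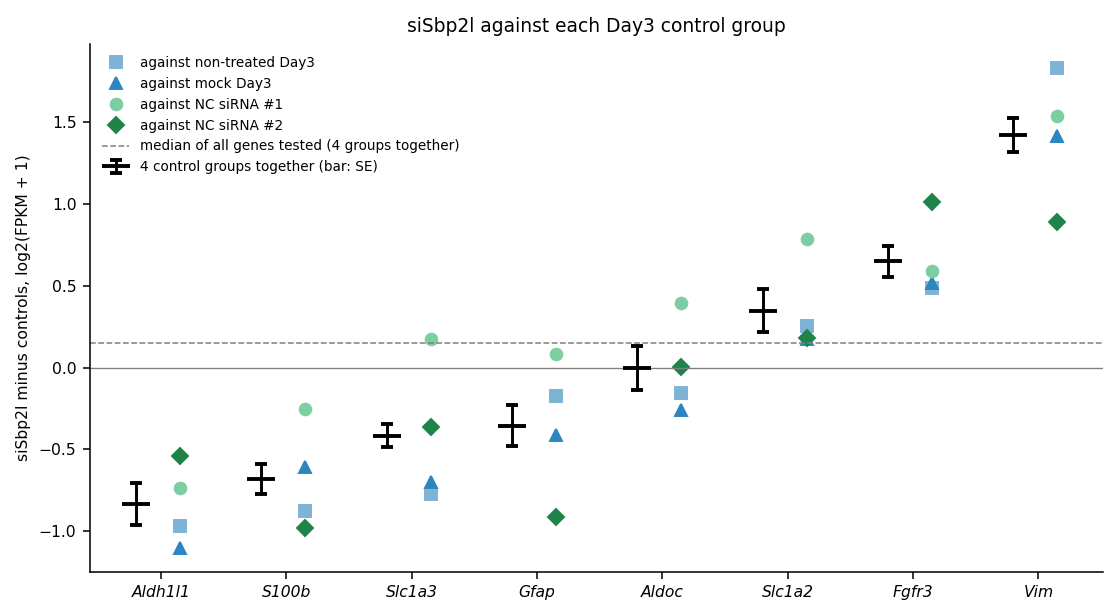
Differences in log2(FPKM + 1) of siSbp2l from the 4 Day3 control groups together (black, bar 1 SE) and from each of them (coloured marks) for the 8 members past the filter; the dashed line is the median of all genes tested, 0.15. Vim and Fgfr3 lie above 0 and Aldh1l1 and S100b below 0 against each group, while the marks of Gfap, Slc1a3 and Aldoc fall on both sides of 0.

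Other astrocyte genes were as mixed, in a comparison in which 35.5% of all genes rose and 17.9% fell. Of 32 tested, 10 rose and 8 fell in siSbp2l (8 and 12 after median-ratio scaling), with a median of -0.01 against 0.15 over all genes. Apoe, the lipid carrier of astrocytes, rose from 23.8 to 53.1 FPKM (1.22 ± 0.17, limma adjusted p = 0.00024), and Kcnj10 fell from 148 to 65.1 (1.14 ± 0.07 lower, limma adjusted p = 1.36e-06). The reactive astrocyte list had 6 risers and no gene that fell of 10 tested (6 and 1 after median-ratio scaling), led by S100a10 (1.00 to 5.19 FPKM) and Cd109 (1.43 to 4.89 FPKM). All 9 OL markers tested fell, with a median of -1.97, and of the 10 OPC markers 3 rose and 2 fell.

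Astrocyte fate factors were higher where they changed, while the Notch, BMP and JAK-STAT lists held genes that rose and genes that fell. Of 11 fate factors tested, 9 rose and none fell (6 and 0 after median-ratio scaling), with a median of 0.57 against 0.15 for all genes. Beside this and the lists below, 35.5% of all genes rose and 17.9% fell. Nr2f1, an orphan nuclear receptor, rose from 25.04 to 70.7 FPKM (1.47 ± 0.09, limma adjusted p = 7.25e-07), and Nfib, of the NFI family that works at glial gene promoters, from 10.1 to 28.6 (1.42 ± 0.12, limma adjusted p = 7.35e-06). Of 13 Notch genes, 9 rose and 1 fell (8 and 3 after median-ratio scaling): the target Hes1 rose from 1.80 to 9.62 FPKM, the ligand Dll1 from 13.02 to 32.7, the receptor Notch1 from 20.4 to 49.4 and the target Hes5 from 5.09 to 12.6. In the BMP and Id list 12 rose and 2 fell of 16 (7 and 2 after median-ratio scaling), with Id2, an inhibitor of helix-loop-helix factors, at 159 against 47.7 FPKM and Smad7 at 4.25 against 12.8. The CNTF receptor and JAK-STAT list split evenly, 3 up and 3 down of 14. The receptor chain Lifr rose from 7.39 to 13.5 FPKM (0.83 ± 0.11, limma adjusted p = 0.0002), and Ptpn11 fell from 152 to 85.9 (0.77 ± 0.07 lower, limma adjusted p = 1.16e-05). Stat3 itself fell by 0.46 and Jak1 and Jak2 each rose by 0.58, named here after their values were seen.

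Of the paralogs and partners of the 10 genes, 9 rose and 9 fell of 27, beside 35.5% and 17.9% of all genes. Nes, which builds filaments with vimentin, rose from 22.3 to 60.8 FPKM (1.42 ± 0.08, limma adjusted p = 5.58e-07). The connexin Gjc3 of OLs fell from 224 to 69.5 FPKM, and the channel Panx1 fell from 74.0 to 22.03.

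The non-targeting siRNAs differed from each other in 6 of the 8 members tested. In NC siRNA #2 against NC siRNA #1, 5 of the 8 members rose and 1 fell, in a comparison in which 21% of the 11650 genes passed. Gfap was 76.5 against 37.8 FPKM, higher by 1.00 ± 0.16 (limma adjusted p = 0.0015), S100b 195 against 118 (0.72 ± 0.12, limma adjusted p = 0.0015) and Vim 1038 against 663 (0.65 ± 0.13, limma adjusted p = 0.0057). Slc1a3 was higher by 0.54 ± 0.09 (limma adjusted p = 0.002) and Slc1a2 by 0.60 ± 0.16 (limma adjusted p = 0.027, and 0.0701 after median-ratio scaling). Fgfr3 fell by 0.42 ± 0.12 on the log2 scale, from 2.13 to 1.33 FPKM (limma adjusted p = 0.029). The calls of Fgfr3 and Slc1a2 were lost with any 1 of the 4 NC siRNA libraries left out (limma adjusted p of 0.106 to 0.143 for Fgfr3 and 0.104 to 0.133 for Slc1a2), and that of Vim without NC siRNA #1 replicate 1 (0.58, limma adjusted p = 0.0696). Aldoc (0.39 ± 0.17, limma adjusted p = 0.14) and Aldh1l1 (-0.20 ± 0.16, limma adjusted p = 0.448) did not pass. The Gfap difference between the 2 non-targeting siRNAs, at 2.02-fold on the FPKM scale, can be set beside that between the controls together and siSbp2l, at 1.34-fold, and their difference was not tested.

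Marker lists also differed between the non-targeting siRNAs, where 10.8% of all genes rose and 10.1% fell in NC siRNA #2. Of 9 OL markers 5 fell and 2 rose in NC siRNA #2, Mobp from 102 to 5.49 FPKM and Mog from 65.8 to 5.34 FPKM. Among the other astrocyte genes 9 rose and 5 fell of 32 (9 and 9 after median-ratio scaling): the metallothionein Mt2 rose from 43.9 to 128 FPKM (1.56 ± 0.34, limma adjusted p = 0.0094), Mt1 from 183 to 380.3 and Mfge8 from 4.96 to 11.3, and the proteoglycan core Bcan fell from 223 to 105. Slc1a1, the neuronal glutamate carrier and a paralog of Slc1a2 and Slc1a3, rose from 72.6 to 243 FPKM (1.73 ± 0.10, limma adjusted p = 3.96e-06), and Fgfr2 fell from 8.67 to 3.27 (limma adjusted p = 1.84e-05). In the JAK-STAT list Socs2 rose from 7.86 to 17.2 FPKM, and the receptor chains Cntfr and Il6ra fell, from 43.0 to 19.0 and from 3.67 to 1.29 FPKM. In all, 3 genes of that list rose and 4 fell of 14.

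The transfection itself was read from mock. The 2 NC siRNA groups together differed from mock in 1 member, Slc1a3, at 26.3 against 39.8 FPKM (0.60 ± 0.08 lower, limma adjusted p = 0.00076), where 16.2% of genes passed. Aldh1l1 (4.31 against 6.30 FPKM, limma adjusted p = 0.0503) and Aldoc (33.9 against 46.5 FPKM, limma adjusted p = 0.061) missed the threshold and passed it after either scaling. Gfap differed by 0.01 ± 0.14 (limma adjusted p = 0.977), and stood at 0.51 above mock in NC siRNA #2 and -0.49 against it in NC siRNA #1. Each NC siRNA on its own differed from mock in further members. Where 20.8% of genes passed, NC siRNA #1 was lower in Slc1a3 (-0.87, limma adjusted p = 0.00013), Aldoc (-0.65, limma adjusted p = 0.022) and Slc1a2 (-0.61, limma adjusted p = 0.027). Where 14.6% passed, NC siRNA #2 was higher in Vim (0.53, limma adjusted p = 0.024) and lower in Aldh1l1 (-0.56, limma adjusted p = 0.045), Fgfr3 (-0.50, limma adjusted p = 0.02) and Slc1a3 (-0.33, limma adjusted p = 0.034). Of the 32 other astrocyte genes 2 rose and 9 fell against mock in the 2 groups together. Apoe fell with the NC siRNAs, to 17.0 from 38.1 FPKM (limma adjusted p = 0.0028), and Serpina3n rose, to 1042 against 455 FPKM (1.13 ± 0.13, limma adjusted p = 0.00038).

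Mock against non-treated Day3 gave no member past the threshold in limma, where 0.215% of genes passed. Limma adjusted p-values ran from 0.207 (Vim, 0.42 ± 0.13) to 0.913 (Fgfr3), and at an unadjusted p under 0.05 there were 2 members, Vim and S100b (-0.27 ± 0.12), beside 16.5% of all genes. Leaving out 1 non-treated library changed these calls. Without replicate 1 limma passed Vim (0.60, adjusted p = 0.00038), Gfap (0.53, adjusted p = 0.00043), Aldh1l1 (0.42, adjusted p = 0.0078), Aldoc (0.38, adjusted p = 0.019) and Slc1a2 (-0.24, adjusted p = 0.031). Without replicate 2 it passed S100b (-0.44, adjusted p = 0.014) and Slc1a2 with the opposite sign (0.39, adjusted p = 0.032), and Gfap was -0.06. In these fits the lone non-treated library is assumed to vary like the other groups. In non-treated, replicate 1 was 1.52-fold replicate 2 for Gfap, 1.60-fold for Aldh1l1 and 1.48-fold for Aldoc, whose longest transcripts have a GC content of 55.5%, 54.4% and 51.9%, and 0.635-fold for Slc1a2, at 45.3%, where the median of the genes is 49.6%. Whether GC content set these ratios was not tested. Of the lists, 1 gene passed between mock and non-treated, the hyaluronan receptor Cd44 of the reactive list, at 16.3 against 5.63 FPKM (1.38 ± 0.10, limma adjusted p = 0.0013).

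**Figure D5:**
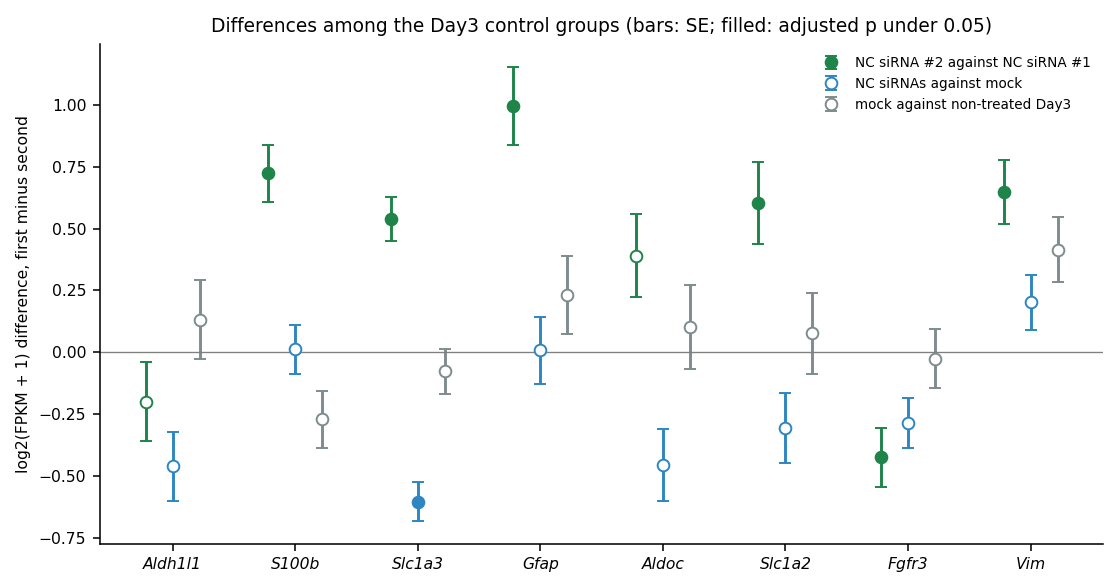
Differences in log2(FPKM + 1), with bars of 1 SE, for the 8 members past the filter between the control groups of Day3; filled marks passed an adjusted p of 0.05 in limma. NC siRNA #2 exceeds NC siRNA #1 in 5 filled marks and is below it in Fgfr3, the NC siRNAs together differ from mock in Slc1a3, and no mark of mock against non-treated is filled.

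In siPdgfra all 8 members past the filter had lower means than the 4 control groups together, which is part of why the genes were chosen and is given without a test, beside 57.1% of all genes that were higher. The log2 difference was -1.81 for Aldoc (10.4 against 39.6 FPKM), -1.55 for Slc1a3 (10.5 against 33.6), -1.46 for Gfap (18.0 against 53.5) and -1.28 for Slc1a2 (6.66 against 18.0). It was -0.79 for Aldh1l1, -0.47 for Vim, -0.28 for Fgfr3 and -0.28 for S100b. So 4 of the 8 lay at least 2-fold lower on the log2(FPKM + 1) scale, where 4.03% of the 11650 genes did, and the members nearest that limit were Slc1a2 inside it and Aldh1l1 outside it, the latter 2.06-fold lower in FPKM. For the first 4 genes and for Aldh1l1 (2.42 and 2.60 FPKM, with 3.93 in the lowest control library) both siPdgfra libraries were below all 8 control libraries. The choice of the genes used low values in siPdgfra, so this is a description only. The share of all genes for which it held was not counted. Fgfr3 was 0.08 above NC siRNA #2 and S100b 0.14 above NC siRNA #1, so these 2 were not lower against every control group. The siSbp2l and siPdgfra comparisons share their control libraries.

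Of 32 other astrocyte genes, on the list drawn up with earlier results known, 21 fell and 2 rose in siPdgfra, with a median of -0.53 against 0.09 over all genes, of which 23% fell and 32.4% rose. Atp1b2, a subunit of the sodium pump, fell from 218 to 55.7 FPKM (1.91 ± 0.12 lower, limma adjusted p = 1.12e-06), and Mlc1 fell from 40.6 to 10.6 FPKM (1.83 ± 0.13 lower, limma adjusted p = 3.01e-06). Bcan and Fabp7, which OPCs also express, each fell by 1.68 on the log2 scale. The glutamate carrier Slc1a1, of the paralog list, fell from 154 to 38.2 FPKM (1.86 ± 0.08 lower, limma adjusted p = 1.48e-07). Of the reactive list 3 rose and 3 fell of 10, Serpina3n from 727 to 133 FPKM (2.26 ± 0.12 lower, limma adjusted p = 3.7e-07). Socs3 fell from 40.2 to 14.8 FPKM and Il6ra rose from 1.76 to 5.84 FPKM in the JAK-STAT list, where 2 rose and 4 fell of 14. In the BMP and Id list 5 rose and 2 fell of 16, Bmp2 going from 0.631 to 6.54 FPKM, and in the Notch list 6 rose and 5 fell of 13, Notch2 going from 3.09 to 10.6 FPKM. Fate factors split into 3 higher and 4 lower of 11 with none at 2-fold. Paralogs and partners split into 13 higher and 9 lower of 27 (9 and 10 after median-ratio scaling), with the connexin Gjb1 of myelinating glia going from 2.29 to 10.8 FPKM. Of the 10 OPC markers 7 fell, Pdgfra as the target of the siRNA among them, and 1 rose, and of the 9 OL markers 6 fell and 2 rose (6 and 1 after median-ratio scaling).

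The 8 genes did not share 1 profile. Over the 14 libraries, which share group, depth and day, Pearson's r of log2(FPKM + 1) was 0.95 for Gfap with S100b, 0.91 for Gfap with Aldh1l1 and 0.91 for Aldh1l1 with S100b, a set that Day0 pulls together. Over the 12 Day3 libraries those values were 0.55, 0.56 and 0.58. A second set was Slc1a3 with Aldoc (0.92 over 14 libraries and 0.93 over 12) and Slc1a2 with both (0.79 over 14 with each, and 0.84 and 0.88 over 12). Over the 12 Day3 libraries Gfap had 0.87 with Aldoc and 0.83 with Slc1a3. Those 12 include siPdgfra, whose low values helped choose the genes and which was the lowest Day3 group in all 4. Over the 10 Day3 libraries without it, a set chosen after seeing the data, Gfap had 0.49 with Aldoc, 0.41 with Slc1a3 and 0.77 with S100b, Slc1a3 with Aldoc had 0.73, and Slc1a2 had 0.34 with Aldoc and 0.39 with Slc1a3. Vim had -0.72 with S100b and -0.73 with Aldh1l1 over 14 libraries, -0.38 and -0.40 over 12, and -0.50 and -0.82 over 10. With the other members it ran from 0.14 (Slc1a3) to 0.57 (Slc1a2 and Fgfr3) over 12, and from -0.47 (Slc1a3) to 0.47 (Fgfr3) over 10. These are descriptions over libraries that come in pairs, with no test.

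The genes with the profile most like each member over the 14 libraries were picked from the whole table by Pearson's r. For Gfap they were Daam2, a Wnt pathway protein of glia (0.99), Ncam1, a cell adhesion molecule (0.98), and Ccl19, a chemokine (0.98). For S100b they were Bmf, Tbcel and 4930402H24Rik (0.98 each), and for Aldh1l1 the enolase Eno2, Snx32 and the lipid transporter Abca2 (0.99 each). Fgfr3 was closest to the Notch target Hes5 (0.96), the complement gene C4b (0.94) and Apoe (0.93). Slc1a3 was closest to Timp3 (0.95), Tgds (0.95) and Tmco1 (0.94), Slc1a2 to Zfp14 (0.96), the OPC gene Lhfpl3 (0.96) and Slc25a40 (0.95), Aldoc to Vhl, Lamtor2 and Hap1 (0.97 each), and Vim to Tti1, Ehd2 and Farp1 (0.96 each). Over the 12 Day3 libraries alone these values lay between 0.76 (S100b with Tbcel) and 0.99 (Aldoc with Hap1).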

How the data were processed

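Poly(A) RNA of 14 libraries was sequenced after a stranded library preparation. The study's methods name OmicSoft ArrayStudio, and the aligner and its settings are not given in the sources used here. The authors deposited FPKM values for 23427 genes, with gene models on mm10. A further deposited table holds the authors' own DESeq2 comparisons of siSbp2l with each control. Its fold changes and p-values were not used, and only coordinates and exon lengths were read from it.

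Members were matched by symbol. The members and gene lists were chosen with earlier results of these data known. Values were tested as log2(FPKM + 1) in limma 3.58.1 (R 4.3.3) with trend and robust variance moderation and Benjamini-Hochberg adjustment over all genes tested, which had at least 1 FPKM in 2 or more libraries. The 12 Day3 libraries were fitted together (11650 genes, 6 residual degrees of freedom), and all 14 for contrasts with Day0 (11874 genes). "Rose", "fell" and "passed" mean an adjusted p under 0.05. From each list, up to 4 genes were named by size among those that also reached 2-fold, or 2 by adjusted p where none did, and the 3 genes most like each member by Pearson's r. Depth was recovered from the spacing of low FPKM values (88.8 to 92.5% of low values came out whole within 0.1 fragments), and floors of 3 fragments cover counting error only. The fit was run on simulated data in which every library had the same spread. A pair as wide as the non-treated pair was not covered by that run. Pseudocounts, filters, median-ratio and upper-quartile scaling, a replicate block, other sets of controls and leaving out each library were tried as alternatives. Some genes of the lists are counted but not reported here by name.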

Additional observations from a re-analysis of the deposited data

How the results depend on the processing

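Vim, Aldh1l1, Fgfr3 and S100b kept their direction and call in siSbp2l against the controls in the 20, 20, 19 and 20 alternatives run. Gfap missed the threshold in 10 of 20 and Slc1a2 in 12 of 20, and Slc1a3 missed it in 1, with only the NC siRNA groups as controls. A pseudocount of 0.1 gave 1376 genes for siSbp2l (838 at a pseudocount of 1), 775 for NC siRNA #2 against NC siRNA #1 (465), 377 for the NC siRNAs against mock (152), 7 for mock against non-treated (1) and 1527 for siPdgfra (931). A pseudocount of 5 gave 392, 196, 34, 0 and 382 in the same order, and 1915 for non-treated against Day0 (3157). A fit of only the groups compared gave 0 for mock against non-treated in limma, and leaving out 1 library there gave 0 to 113, the 113 without non-treated replicate 1 and 5 without non-treated replicate 2. Median-ratio scaling changed the split of siPdgfra calls from 462 higher and 469 lower to 370 and 585.

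Signs turned for differences that had not passed in the fits reported. Aldoc in siSbp2l was 0.20 with only the NC siRNAs as controls, 0.0466 without the non-treated group and -0.14 to 0.13 with 1 library left out. Between the NC siRNAs and mock, Gfap was -0.0096 after median-ratio and -0.0031 after upper-quartile scaling and -0.0278 to 0.0435 with 1 library left out, and S100b was -0.0062 after median-ratio scaling and -0.0389 to 0.0615. Between mock and non-treated, with 1 library left out, Gfap ran from -0.0621 to 0.529, Slc1a2 from -0.24 to 0.39, Aldoc from -0.18 to 0.38, Aldh1l1 from -0.16 to 0.42 and Fgfr3 from -0.17 to 0.12. There 6 members passed in 1 or both fits without a non-treated replicate: without replicate 1 Vim (0.60, limma adjusted p = 0.00038), Gfap, Aldh1l1, Aldoc and Slc1a2 (limma adjusted p = 0.00043, 0.0078, 0.019 and 0.031), and without replicate 2 S100b (-0.44) and Slc1a2 (limma adjusted p = 0.014 and 0.032). The cause of these shifts was not tested.

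Over 21 pairs of groups the deviations of same-numbered libraries correlated from -0.38 to 0.47, and 4 exceeded 0.1. These values cannot tell whether same-numbered libraries shared a cell preparation, since replicate differences also ran with GC content in some groups. With the replicate number as a block the counts were 838, 466, 151, 1, 3157 and 930 for siSbp2l, the NC siRNAs against each other, the NC siRNAs against mock, mock against non-treated, non-treated against Day0 and siPdgfra. Depth limits Aqp4 and Gja1, which had at most 66 and 3 fragments.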
